A study of Mus musculus with 12 samples.

Results

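The mitochondrial ribosomal protein genes are the nuclear genes that encode the proteins of the ribosome inside mitochondria. They were taken here as the probe sets annotated with a single symbol that starts with Mrpl (large subunit) or Mrps (small subunit) followed by a digit, without pseudogene symbols. Where a gene had several probe sets, the one with the highest mean over all arrays was used. This gave 77 of the 19938 genes that have a probe set of their own on the array, 48 of them Mrpl and 29 Mrps genes. A further probe set carries the symbol of Mrpl53 together with that of another gene and was not used. The symbol rule used no difference between conditions, but the gene set was chosen with earlier results of these data known.

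The RNA came from Min6, an insulin-secreting cell line from a mouse insulinoma that serves as a model of the pancreatic beta cell, and was measured on 12 arrays, 4 per condition. All cultures began with 5 days in DMEM with 15% fetal calf serum and 2-mercaptoethanol at 20% oxygen, and penicillin-streptomycin was present throughout. Under classic conditions (CC) this went on for 10 more days. Under defined conditions (DC) the final 10 days were spent at 5% oxygen in serum-free DMEM-F12 with selenite, putrescine, progesterone and apo-transferrin. In the return condition (RC) 5 such serum-free days were followed by 5 days back in serum at 20% oxygen. Serum, oxygen, basal medium and supplements changed together, so no difference can be assigned to one of them. The quadruplicates came from a single experiment with 1 line, so the p-values reflect only how far these samples lie apart, which may be technical. In such bulk RNA, fewer cells of a kind and less RNA per cell cannot be told apart.

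Mitochondria translate the few messages of their own genome, all of them for subunits of the respiratory chain and ATP synthase, on a ribosome whose RNAs come from mitochondrial DNA and whose proteins are all made in the cytosol and imported. Part of these proteins descend from bacterial ribosomal proteins and part are found only in mitochondria. In beta cells, ATP made by the respiratory chain closes the potassium channels whose closure starts insulin secretion, so this ribosome is part of the machinery on which glucose sensing depends.

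Each value is a log2 expression value of a probe set, and a log2 difference of 1 is 2-fold. The array medians over all 35556 probe sets lay between 7.92 and 8.05 and the interquartile ranges between 2.42 and 2.75. Array RC 3 had the lowest mean correlation with the other arrays of its group (0.976, against 0.989 to 0.990 for the other RC arrays) and the narrowest interquartile range. Most beta cell markers were high in all conditions, with 12 of 13 measured genes above the median of all values (7.99) in each. Their gene means ran from 7.65 to 13.86 (Iapp) in CC, from 7.94 to 13.77 in DC and from 7.82 to 13.85 in RC. The zinc transporter gene Slc30a8 rose in DC (0.31 ± 0.08; limma adjusted p = 0.0405) and fell from DC to RC (-0.45 ± 0.08; adjusted p = 0.00916). Chgb of the secretory granule fell in DC (-0.29 ± 0.06; limma adjusted p = 0.0139). The second of these calls held with each single array left out, the first only without DC 1, RC 3 or RC 4, and that of Chgb in all but the fits without CC 4 or DC 2. For RC against CC, the potassium channel subunit gene Abcc8 had the lowest p in this list (-0.15 ± 0.05; adjusted p = 0.367). Of 14 measured markers of fibroblast, endothelial, immune, acinar and duct cells, 4 exceeded that median in CC and 5 in DC and in RC. The array means of that list ranged from 7.38 to 7.56 in CC, from 7.50 to 7.74 in DC and from 7.46 to 7.80 in RC. Its gene means ran from 6.17 to 9.67 in CC, from 6.24 to 9.84 in DC and from 6.29 to 9.91 in RC. Ptprc, which defines leukocytes, was among the low ones and averaged 6.28 in CC, 6.46 in DC and 6.36 in RC. All 14 differences were above 0 for DC against CC (median 0.17) and for RC against CC (median 0.10). Values above 0 were also common among all probe sets of the second lowest of 5 level classes, at 79.5% (median 0.11) and 79.8% (median 0.07). The lowest p-values were those of the endothelial genes Pecam1 (0.19 ± 0.07 for DC against CC) and Kdr (0.22 ± 0.10) and of the macrophage gene Cd68 (0.24 ± 0.16 for RC against CC). None passed the test in any comparison, and their part in the results below was not tested.

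The genes are spread over 17 chromosomes, and matches to 3 of 5 motifs searched were more frequent in their start regions than in windows in general. Promoter windows of 300 bases (250 before and 50 after the annotated start, RefSeq, GRCm38.p6) were found for 68 of the 77 genes, as 74 windows. They were searched on both strands for the type of site bound by NRF1 (GCGC and again GCGC with any 2 bases between), CCGGAAG, the ETS type bound by GABPA, AAGATGGC, the YY1 type, the E-box CACGTG, and ACGTG, the core of the hypoxia response element. The last is contained in every E-box. NRF1, GABPA and YY1 are transcription factors known to act on nuclear genes for mitochondrial proteins. An NRF1-type match was in 18.9% of the members' windows and in 6.23% of all 32851 windows. ETS-type matches were in 33.8% against 8.86%, and YY1-type matches in 16.2% against 2.75%. E-boxes were in 9.46% against 7.15%, and the hypoxia core in 25.7% against 19.6%. Of the 7 E-box windows, 3 are overlapping windows of Mrpl2. Counted by gene, E-boxes were in 7.35% of the members and 8.09% of all 27025 genes, and the hypoxia core in 23.5% and 21.8%. The other 3 motifs were in 20.6% against 7% (NRF1), 36.8% against 9.93% (ETS) and 17.6% against 3.19% (YY1) by gene. The median content of G and C was 58.5% in the members' windows and 52.7% in all. All windows were taken without a filter on gene type, while the members are all protein-coding, so the sets differ in that as well. No test was made of these shares.

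**Figure D1:**
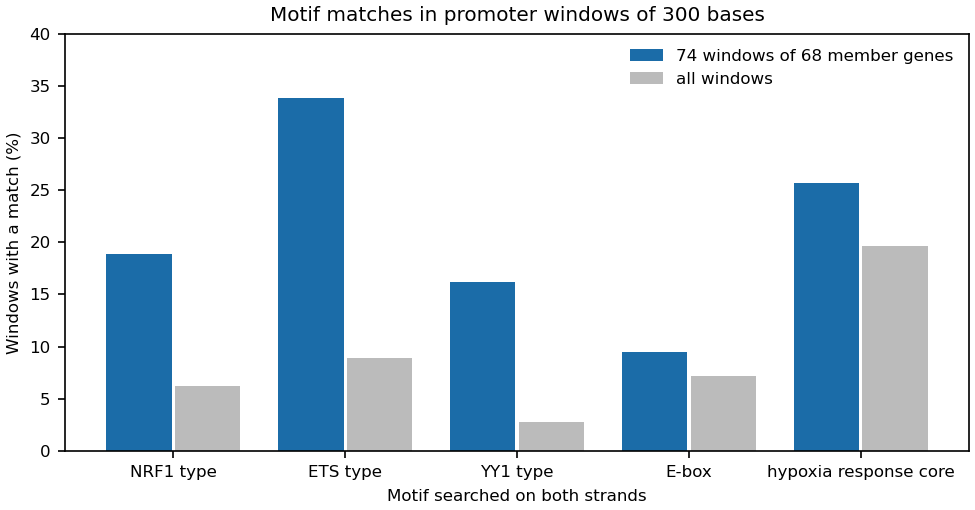
Percentage of promoter windows of 300 bases with at least 1 match of each motif on either strand, for the 74 windows of 68 mitochondrial ribosomal protein genes (blue) and for all 32851 windows (grey). The shares stand at 33.8% against 8.86% for the ETS type and at 25.7% against 19.6% for the hypoxia core.

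Of the YY1-type matches, 8 lay after the annotated start and 4 before it. The 5 that lie after the start in genes described below are shown 5′ to 3′ on the strand of the gene, with the match in capitals and 8 bases on each side, because the same letters recur in the first bases of these transcripts. The windows are chr4:107066825-107066848 for Mrpl37, chr10:95501907-95501930 for Mrpl42, chr19:6057724-6057747 for Mrpl49, chr17:46111007-46111030 for Mrps18a and chr13:99344792-99344815 for Mrps27. The first 3 genes are on the minus strand and the others on the plus strand, and the matches begin 27, 28, 17, 12 and 15 bases into the transcript in the same order.
Mrpl37: cacgggcaAAGATGGCggcgtcca
Mrpl42: attgaagcAAGATGGCgagcgcgc
Mrpl49: gaggcgccAAGATGGCagcagcgg
Mrps18a: tgcgttccAAGATGGCggccctca
Mrps27: tgcgctccAAGATGGCggctccca

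NRF1-type sites before the start are shown in the same way for the described genes that hold one, since their distances to the start are alike (83, 87 and 91 bases). They are at chr1:37890386-37890411 (Mrpl30, plus strand), chr13:14613107-14613132 (Mrpl32, minus strand) and chr3:95871588-95871613 (Mrps21, minus strand).
Mrpl30: acgccgctGCGCCTGCGCtgtcttct
Mrpl32: tgacccttGCGCATGCGCaagagggg
Mrps21: aaagtccaGCGCCTGCGCtcagcacc

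The start regions of the 3 genes that passed a test are shown as the 250 bases before the annotated start, 5′ to 3′ on the strand of the gene, with matches to the 5 motifs in capitals. They lie at chr4:107066867-107067116 (Mrpl37, minus strand), chr6:92184024-92184273 (Mrps25, minus strand) and chr16:92058086-92058335 (Mrps6, plus strand). The capitals in Mrpl37 are an E-box, which contains the hypoxia core on both strands, and begin 162 bases before the start. Mrps25 and Mrps6 have no match in their whole windows.
Mrpl37: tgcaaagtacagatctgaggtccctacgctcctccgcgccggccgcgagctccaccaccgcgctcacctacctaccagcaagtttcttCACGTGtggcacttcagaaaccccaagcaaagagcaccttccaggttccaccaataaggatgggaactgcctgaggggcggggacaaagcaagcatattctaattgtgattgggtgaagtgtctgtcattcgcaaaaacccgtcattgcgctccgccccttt
Mrps25: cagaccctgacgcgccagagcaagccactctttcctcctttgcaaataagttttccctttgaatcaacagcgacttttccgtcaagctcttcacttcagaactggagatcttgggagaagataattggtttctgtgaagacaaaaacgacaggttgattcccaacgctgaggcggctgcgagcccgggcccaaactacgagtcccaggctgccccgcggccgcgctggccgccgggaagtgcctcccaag
Mrps6: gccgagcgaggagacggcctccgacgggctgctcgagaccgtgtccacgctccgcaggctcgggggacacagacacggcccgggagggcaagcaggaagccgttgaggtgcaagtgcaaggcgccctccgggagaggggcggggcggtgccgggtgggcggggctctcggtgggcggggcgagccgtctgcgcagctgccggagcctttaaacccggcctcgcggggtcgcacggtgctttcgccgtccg

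Head-to-head neighbours were also frequent. In the RefSeq gene table, 17 of the 68 genes with a known strand (25%) had another protein-coding gene starting on the opposite strand within 1000 bases upstream, against 6.57% of 17491 protein-coding genes. The partners include genes of the same organelle: Ndufs6 beside Mrpl36 and Ndufb5 beside Mrpl47, both for subunits of respiratory complex I, and the mitochondrial seryl-tRNA synthetase gene Sars2 beside Mrps12. Mrpl46 of the large and Mrps11 of the small subunit face each other. The 41 bases between their starts (chr7:78783090-78783130, minus strand, the strand of Mrpl46) hold no match to the 5 motifs and are shown because both genes start from them.
Mrps11 to Mrpl46: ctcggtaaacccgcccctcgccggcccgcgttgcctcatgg
Mrpl46 read 8.73, 8.73, 8.53 and 8.43 on CC 1 to CC 4, 8.49, 8.52, 8.54 and 8.48 in DC, and 8.61, 8.56, 8.56 and 8.68 in RC. Mrps11 read 8.97, 8.85, 8.63 and 8.65 in CC, 8.54, 8.47, 8.65 and 8.64 in DC, and 8.80, 8.65, 8.73 and 8.79 in RC. In both, CC 1 and CC 2 were the highest arrays, DC lay lower on average, and neither passed the test in a comparison.

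The 77 genes were well above the middle of the scale on the array. Their means over 12 arrays ran from 6.26 to 10.66 with a median of 9.02, and 70 exceeded the median of all values. Values of different probe sets depend on their probes and are not compared as amounts. With all probe sets divided into 5 level classes of equal size, the genes numbered 1, 1, 11, 43 and 21 from the lowest to the highest class. Their spread between replicates was like that of the array as a whole, with a median within-group SD of 0.131 for the members and 0.135 for all probe sets. It was widest for Mrpl42 (0.49), the member with the lowest mean, and for Mrps18c (0.31).

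**Figure D2:**
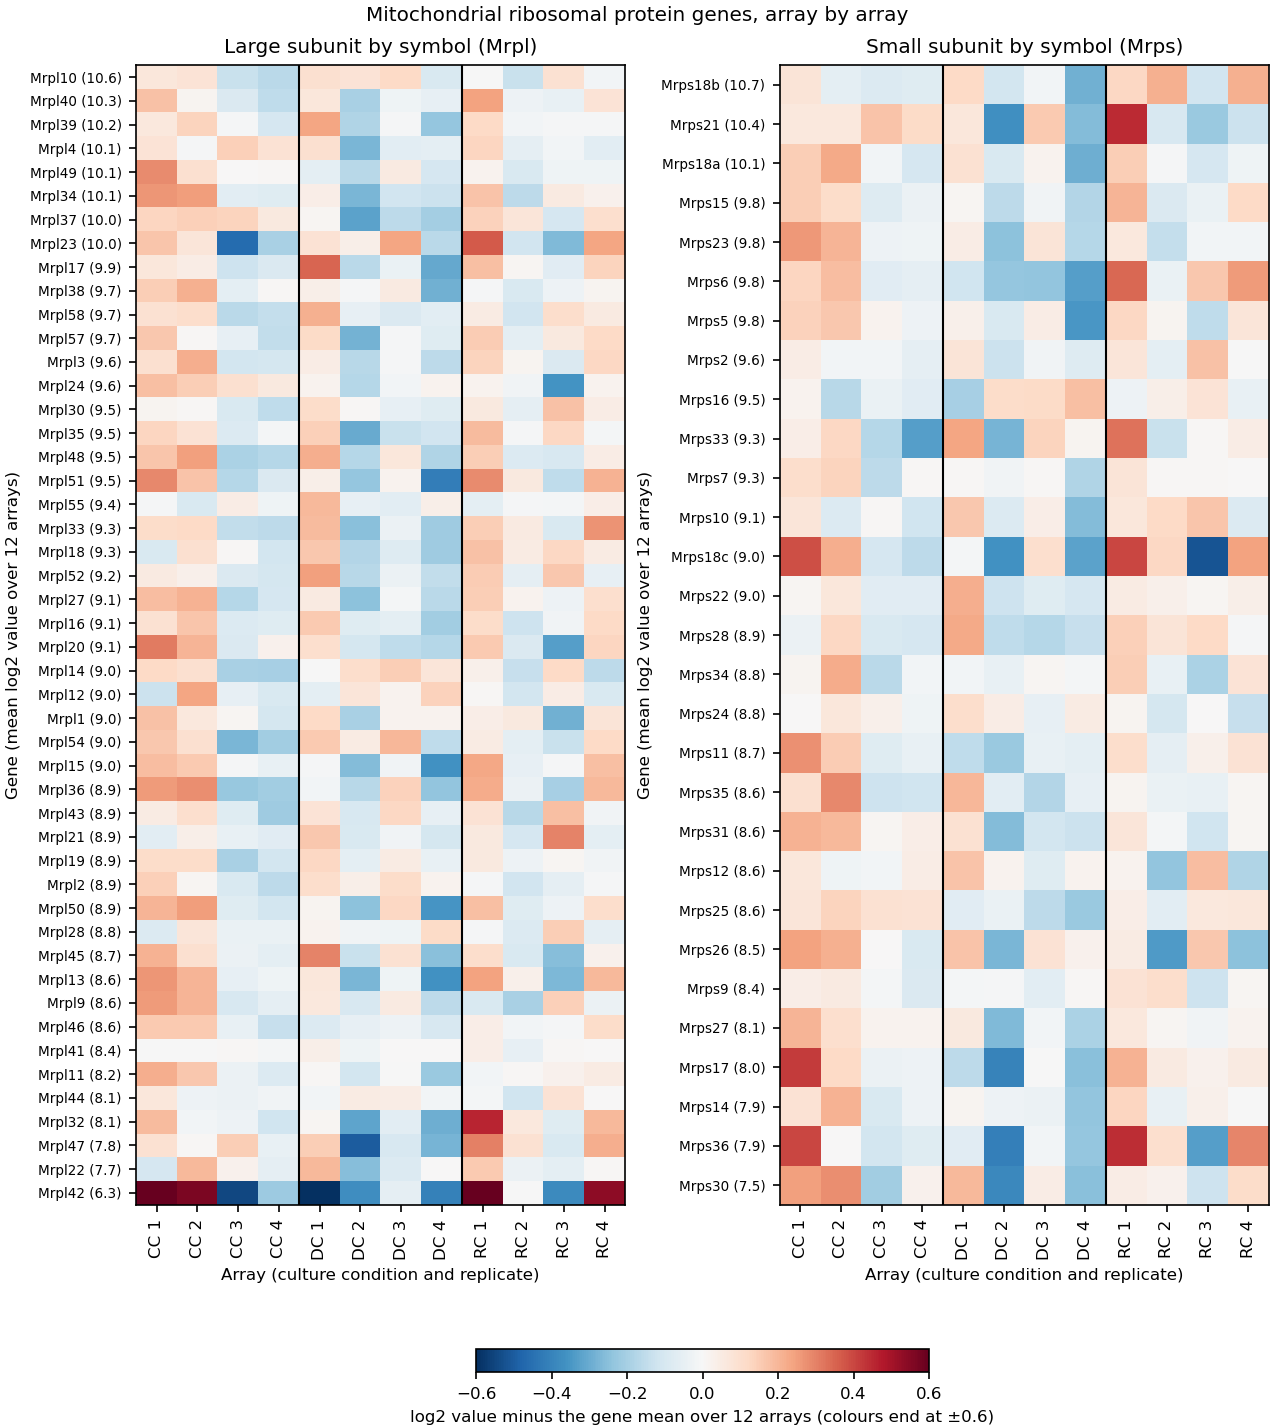
Log2 value of each of the 77 genes on each of the 12 arrays, minus that gene's mean over the arrays. Mrpl genes are on the left and Mrps genes on the right, with the mean in parentheses. Red columns recur at CC 1, CC 2 and RC 1 and blue columns at DC 2 and DC 4, while no condition is of 1 colour throughout; Mrpl42 exceeds the end of the colour scale on some arrays.

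Many of the genes were high or low on the same arrays, and the arrays of a condition did not stay together. The median over the 77 genes was 9.16, 9.21, 8.96 and 8.93 on CC 1 to CC 4, 9.16, 8.95, 9.08 and 8.91 on the DC arrays, and 9.16, 8.98, 9.07 and 9.13 on the RC arrays. The conditions overlapped, with averages of these medians (± SD, n = 4) of 9.06 ± 0.14 for CC, 9.02 ± 0.12 for DC and 9.08 ± 0.08 for RC. The interquartile range of the array moved with the median: it was 2.73 (CC 1) and 2.75 (CC 2) where the median was high, and 2.47 (DC 2) and 2.44 (DC 4) where it was low. RC 3, with a range of 2.42 and a median of 9.07, did not follow this order.

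The CC arrays were divided into 2 against 2 after their medians were seen, so the following values describe that split and test nothing. Divided in this way, the median difference within CC was wider than those between conditions, which compare 4 arrays with 4 and were not picked by their values. In 71 of 77 genes the mean of CC 1 and CC 2 exceeded that of CC 3 and CC 4, against 43.2% of all probe sets. The median difference was 0.20, while it was -0.03 over all probe sets, 0.05 in the level class that holds most of the genes and 0.09 in the class above it. In 60 genes both CC 1 and CC 2 lay above both CC 3 and CC 4, which was so in 26.8% of all probe sets. The difference reached 1.08 in Mrpl42, whose CC arrays read 7.10, 6.82, 5.71 and 6.04. The labels name no batch that would part these arrays, and what set them apart was not tested.

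**Figure D3:**
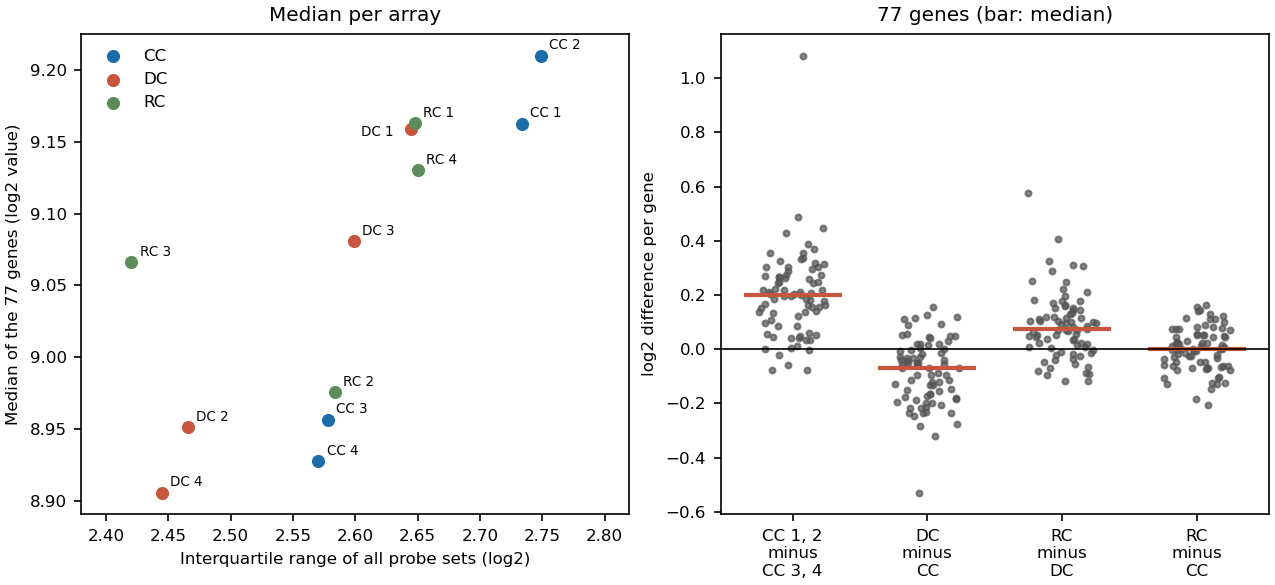
Left, the median log2 value of the 77 genes on each array against the interquartile range of all probe sets on that array, coloured by condition. Right, the log2 difference of each gene between CC 1 and 2 and CC 3 and 4 and between the conditions, with a bar at the median: 0.20 within CC, -0.07 for DC minus CC, 0.07 for RC minus DC and 0.00 for RC minus CC.

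DC was compared with CC to find whether 10 days without serum at 5% oxygen changed the messages for this ribosome. Nearly all were not detectably different. Of the 77 genes 2 fell, Mrpl37 and Mrps25, none rose and 75 did not pass (limma, Benjamini-Hochberg over all 35556 probe sets, adjusted p under 0.05). Over all probe sets 6.64% passed, made up of 4.32% lower and 2.31% higher in DC, beside 2.6% of the members. These 2.6% are 2 genes, and the shares were not compared by a test. The precision was enough to bound most of the 77 differences: for 74 genes the 95% interval of the difference lay within 1.5-fold in both directions. The 3 whose interval reached further were Mrpl42, Mrps18c and Mrps36, a gene named for the small subunit whose product is now placed in the oxoglutarate dehydrogenase complex.

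Mrpl37 encodes a large subunit protein found only in mitochondria. It read 10.11, 10.12, 10.11 and 10.04 in CC, 9.99, 9.66, 9.82 and 9.77 in DC, and 10.12, 10.05, 9.88 and 10.08 in RC. Every DC array lay below every CC array, and RC overlapped with both. In DC it fell by 0.28 (log2) with an SE of 0.08 over 4 arrays per group, a 1.22-fold difference (limma adjusted p = 0.0449). Of the 12 fits that each left out 1 array, the call held in those without DC 1 or RC 3 and ended in the others (adjusted p up to 0.147, with differences from -0.34 to -0.23).

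Mrps25, a small subunit protein without a bacterial counterpart, read 8.63, 8.69, 8.65 and 8.64 in CC, 8.49, 8.51, 8.40 and 8.33 in DC, and 8.60, 8.49, 8.62 and 8.62 in RC. The DC arrays lay below the CC arrays, as the RC arrays did by a smaller margin. The fall in DC was 0.22 ± 0.06 (1.16-fold; limma adjusted p = 0.0418). This call held in the fits without DC 1, DC 2, RC 2 or RC 3 and ended without any other single array (limma adjusted p up to 0.115). With the interquartile range of the array as a covariate the difference was -0.21 for Mrps25 and -0.19 for Mrpl37, with adjusted p = 0.0561 and 0.0886.

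The groups of 4 arrays did not overlap in 4 genes, all lower in DC, which was so in 7.96% of all probe sets (higher in DC: no member, 7.29% of all). Besides Mrpl37 and Mrps25 these were Mrps6 and Mrpl24, counterparts of bacterial ribosomal proteins of the small and the large subunit. Mrps6 stood at -0.28 ± 0.09 (limma adjusted p = 0.0994) and Mrpl24 at -0.16 ± 0.09 (adjusted p = 0.309). Next by p-value were Mrps17 of the small subunit at -0.32 ± 0.11, Mrps31 at -0.22 ± 0.08 and the pentatricopeptide protein gene Mrps27 at -0.19 ± 0.08, with limma adjusted p = 0.113, 0.16 and 0.191. Mrps17 read 8.40, 8.10, 7.94 and 7.95 in CC and 7.82, 7.58, 7.97 and 7.73 in DC, so that DC 3 overlapped with CC 3 and CC 4.

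As a group the genes leaned to lower values in DC, by an amount that depended on the arrays and the scaling. The difference was below 0 in 57 of 77 genes, with a median of -0.07, while it was below 0 in 39.7% and above 0 in 60.3% of all probe sets, whose median was 0.04. In the 2 highest level classes, which hold 64 of the genes, the medians over all probe sets were -0.02 and -0.06, with 55.4% and 61.7% of them below 0. Mrps genes were below 0 in 86.2% of 29 (median -0.11) and Mrpl genes in 66.7% of 48 (median -0.06), a difference between symbol groups that was not tested. The Mrps genes include Mrps18a, Mrps30 and Mrps36, whose products are placed outside the small subunit. The 48 genes with a bacterial counterpart and the 29 without had medians of -0.07 and -0.07. With median centring 68 genes were below 0 (median -0.12), with quantile normalization 46 (median -0.04) and with array weights 56 (median -0.04). With the interquartile range as a covariate 30 were, and the median was 0.02. With single arrays left out the median ran from -0.14 (without DC 1) to -0.04 (without CC 2 or DC 2). It was -0.11 without CC 3 or CC 4. Against CC 1 and CC 2 alone the median was -0.17 and against CC 3 and CC 4 alone 0.02, and without DC 2, DC 4 and RC 3 it was 0.01. These last settings were chosen after the values were seen. DC 2 and DC 4 had the lowest medians of the DC arrays (8.95 and 8.91), so leaving them out favours higher values in DC. Such values describe the arrays and test nothing.

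**Figure D4:**
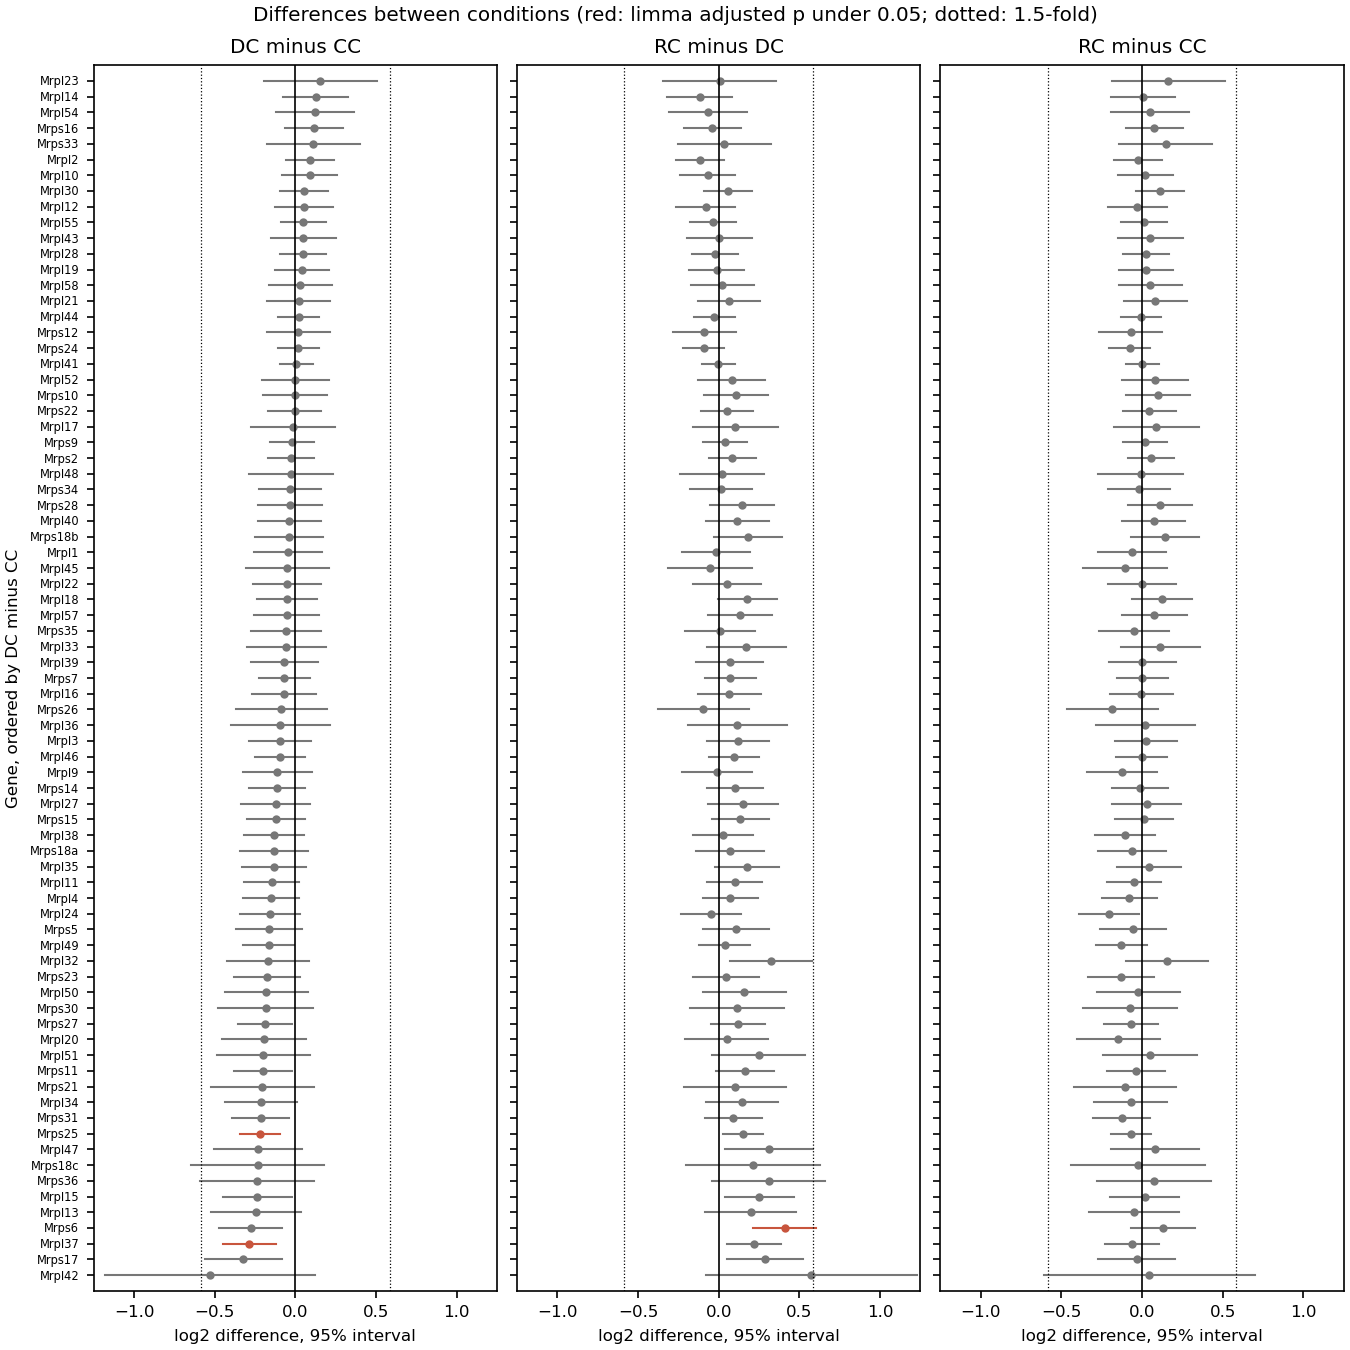
Log2 difference of each of the 77 genes (point) with its 95% interval (line) for DC minus CC, RC minus DC and RC minus CC, in the order of the first. Dotted lines mark 1.5-fold and red marks limma adjusted p under 0.05, reached by Mrpl37 and Mrps25 in the first panel and by Mrps6 in the second; the longest intervals belong to Mrpl42.

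The comparison of RC with DC asks what a return to serum and 20% oxygen changed, and it also holds the shorter time without serum (5 against 10 days). The DC arrays are the same as above, so the values of both comparisons are not independent. Of the 77 genes 1 rose, Mrps6, and none fell. Over all probe sets 2.63% passed, made up of 1.45% higher and 1.18% lower in RC, beside 1.3% of the members. That is 1 gene, and the shares were not compared by a test. For 73 genes the 95% interval lay within 1.5-fold.

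Mrps6, the mitochondrial counterpart of bacterial S6, a protein at the edge of the small subunit platform, read 9.93, 9.99, 9.73 and 9.75 in CC, 9.68, 9.57, 9.56 and 9.47 in DC, and 10.14, 9.76, 9.96 and 10.05 in RC. All DC arrays lay below all CC and all RC arrays, while CC and RC overlapped. It was higher in RC than in DC by 0.41 ± 0.09 (SE), or 1.33-fold (limma adjusted p = 0.0319). The call ended when any of DC 2, DC 3, DC 4, RC 1 and RC 4 was left out (highest adjusted p = 0.116), and after median centring of the arrays (adjusted p = 0.0762). With the interquartile range as a covariate the difference was 0.38 with an adjusted p = 0.013.

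The other genes nearest to the threshold were Mrpl37 (0.22 ± 0.08), Mrpl32 (0.33 ± 0.12), Mrps17 (0.29 ± 0.11), Mrps25 (0.15 ± 0.06) and Mrpl15 (0.25 ± 0.10), with limma adjusted p from 0.218 to 0.303. Mrpl32 encodes a large subunit protein that has to be cut by the m-AAA protease before it enters the ribosome. It read 8.08, 7.75, 8.002 and 7.77 in DC and 8.52, 8.13, 7.99 and 8.26 in RC, so the groups overlapped through RC 3. The groups did not overlap in 4 genes: Mrps6, Mrps17 and Mrpl46 were higher in RC (3.06% of all probe sets were) and Mrpl2 was lower (3.23%). Without RC 3, Mrpl37 and Mrpl32 passed together with Mrps6. With array weights, which were 0.161 for RC 3 and between 1.33 and 2.17 for the other RC arrays, 12 genes passed, all higher in RC. The share of all probe sets that passed in these alternative fits is not given here. These calls are therefore not read as a result about the genes.

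The difference was above 0 in 59 and below 0 in 18 of the 77 genes, with a median of 0.07. Over all probe sets it was above 0 in 45.2% and below 0 in 54.8%, with a median of -0.01. The median of the genes was 0.13 without DC 1, 0.03 without DC 4 and 0.04 without DC 2, and 0.13 with array weights. Without DC 2, DC 4 and RC 3 the difference was below 0 in 39 genes and the median of the genes was 0.00. These arrays were left out after the values were seen, and DC 2 and DC 4 had the lowest medians of DC. This value therefore tests nothing. The medians were 0.06 for Mrpl and 0.10 for Mrps genes, against 0.00 and 0.03 over all probe sets of the 2 highest level classes.

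RC was compared with CC to find what remained after 5 days back in serum. No member passed, against 0.796% of all probe sets, and 1 of 77 had an unadjusted p under 0.05, against 9.06% of all probe sets. The interquartile range as a covariate gave 1 call (Mrpl33) and array weights gave 2 (Mrps18b and Mrpl33), all higher in RC. The shares of all probe sets that passed under these settings are not given here. The difference was below 0 in 36 genes and above 0 in 41 (38.4% and 61.6% of all probe sets), with a median of 0.00 and a range from -0.20 to 0.16. This even split depended on the scaling and on the CC arrays: 54 genes were below 0 with median centring (median -0.04), while 60 were above 0 with array weights (0.08) and 60 when the interquartile range was a covariate (0.06). Against CC 1 and CC 2 alone 61 were below 0 (-0.09), and against CC 3 and CC 4 alone 62 were above 0 (0.10). With single arrays left out the median ran from -0.04 (without CC 3) to 0.04 (without CC 2). For 76 genes the 95% interval lay within 1.5-fold, the exception being Mrpl42.

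Mrpl24 had the lowest p. It read 9.74, 9.71, 9.66 and 9.62 in CC, 9.59, 9.39, 9.55 and 9.58 in DC, and 9.58, 9.54, 9.21 and 9.59 in RC. CC lay above the other groups on every array, and RC 3 was the lowest of all. The difference between RC and CC was -0.20 ± 0.09 (limma adjusted p = 0.482). The groups did not overlap in Mrpl24 and Mrps25, both lower in RC, which was so in 5.45% of all probe sets (higher in RC: no member, 2.49% of all). Next came Mrpl49 at -0.13 ± 0.07, Mrpl30 at 0.11 ± 0.07, Mrps31 at -0.13 ± 0.08, Mrps18b at 0.14 ± 0.10 and Mrpl18 at 0.12 ± 0.08, with adjusted p from 0.672 to 0.727.

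Mammals have 3 paralogues of the bacterial small subunit protein S18, and none of their genes passed in any comparison. Mrps18c is the one that takes the bacterial place, Mrps18b occupies another place in the small subunit and Mrps18a, despite its symbol, sits in the large subunit, as does the Mrps30 product. Given as mean ± SD of the 4 arrays of CC, DC and RC in turn, Mrps18a stood at 10.14 ± 0.15, 10.01 ± 0.17 and 10.08 ± 0.10. Mrps18b averaged 10.63 ± 0.08, 10.59 ± 0.17 and 10.77 ± 0.16. Mrps18c averaged 9.10 ± 0.26, 8.86 ± 0.23 and 9.07 ± 0.40, and its RC arrays read 9.41, 9.13, 8.49 and 9.25. The 95% interval for DC against CC ran from -0.34 to 0.08 for Mrps18a, from -0.25 to 0.17 for Mrps18b and from -0.65 to 0.18 for Mrps18c. Mrps30 averaged 7.57 ± 0.23, 7.39 ± 0.27 and 7.50 ± 0.10 and did not pass either.

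**Figure D5:**
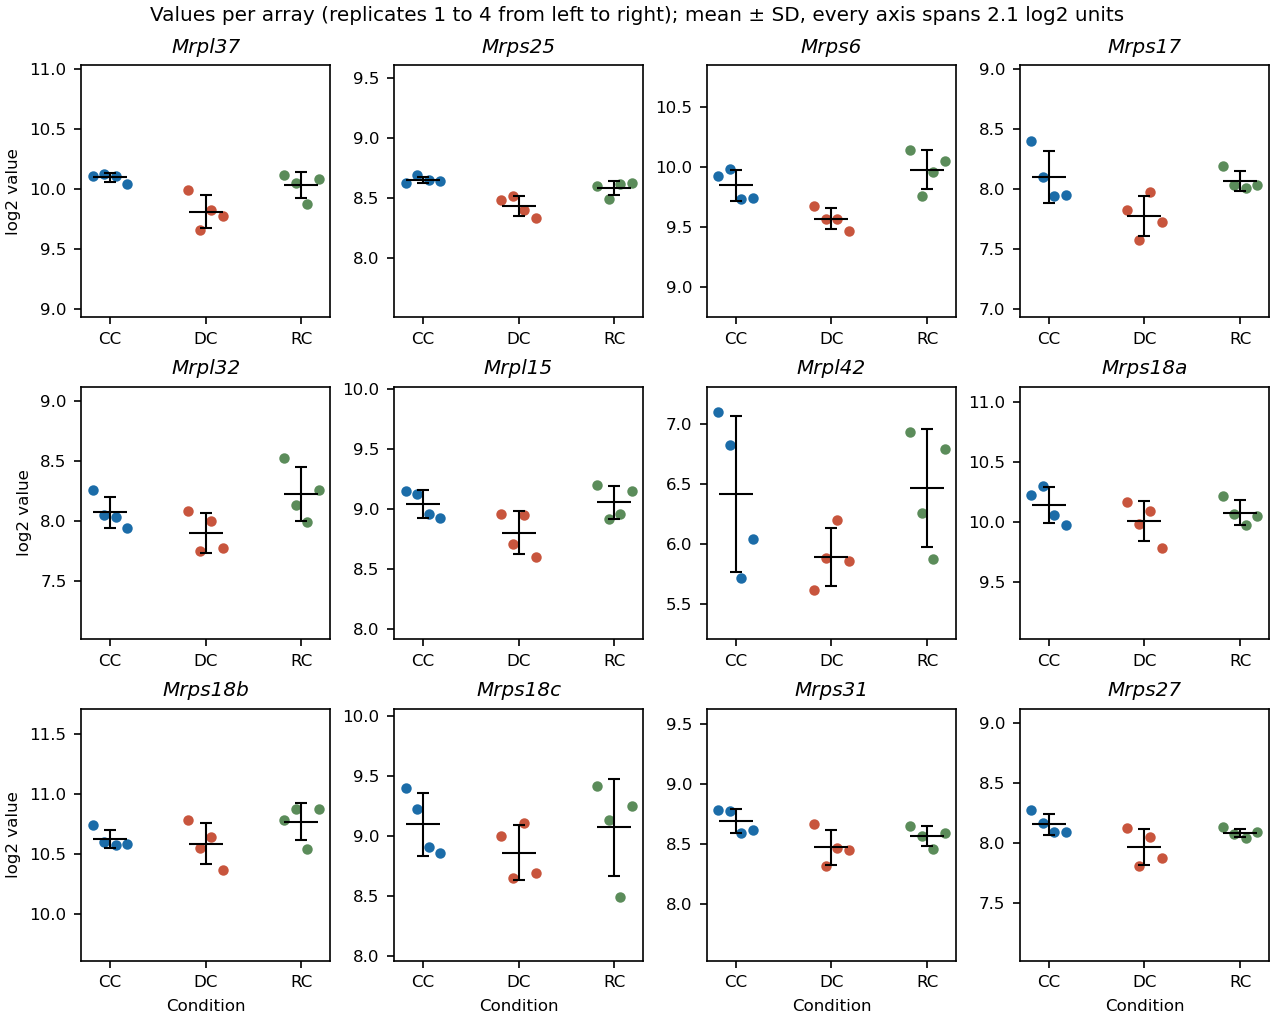
Log2 value of 12 described genes on each array (points, replicates 1 to 4 from left to right within a condition) with the mean and SD of 4 arrays; all axes span the same range. Mrps6 has its 4 DC arrays between 9.47 and 9.68, below all others, while Mrpl42 spans 5.71 to 7.10 within CC alone.

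The members with the highest and lowest means, Mrps18b among them, had no call either. Mrpl10, which carries the stalk that recruits translation factors, averaged 10.61 ± 0.13 in CC, 10.69 ± 0.10 in DC and 10.63 ± 0.09 in RC. Mrps21 averaged 10.54 ± 0.05, 10.33 ± 0.25 and 10.43 ± 0.30. Mrpl22, whose bacterial counterpart lines the tunnel through which the new protein leaves, averaged 7.75 ± 0.13, 7.69 ± 0.19 and 7.75 ± 0.10. Mrpl42 averaged 6.42 ± 0.65, 5.89 ± 0.24 and 6.46 ± 0.49, and its interval for DC against CC, from -1.18 to 0.12, was too wide to exclude a 2-fold decrease.

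Of the 77 genes 8 have a pair of probe sets, and near-identical copies of a gene elsewhere in the genome could add to the signal of either. Both members of each pair were without a call in the 3 comparisons. They differed most for Mrpl51, at -0.20 ± 0.13 in the used and 0.00 ± 0.08 in the other probe set for DC against CC, and for Mrpl47, at -0.23 ± 0.13 and 0.03 ± 0.07.

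Other genes of mitochondrial translation were described by lists. The 4 measured subunits with other symbols (Dap3, Ptcd3, Chchd1 and Gadd45gip1) had no call. Their differences between DC and CC lay between -0.28 ± 0.14 (Ptcd3) and -0.06 ± 0.11 (Gadd45gip1), all below 0. Of 26 factors that assemble the mitochondrial ribosome or modify its RNA, 1 fell in DC, Mpv17l2 (-0.30 ± 0.08; limma adjusted p = 0.0422), and none passed in the other comparisons. Mpv17l2 read 10.76, 10.57, 10.74 and 10.57 in CC and 10.37, 10.16, 10.46 and 10.45 in DC. The call held only without DC 3, DC 4 or RC 3 when single arrays were left out (adjusted p up to 0.14). Next in this list stood Fastkd2, whose product binds the large ribosomal RNA. Its difference was -0.34 ± 0.11 for DC against CC (limma adjusted p = 0.117) and 0.20 ± 0.11 for RC against DC. For RC against CC, Ybey stood at 0.20 ± 0.08 and Eral1, an RNA chaperone of the small subunit, at -0.20 ± 0.09. No translation factor of 17 passed. The translation elongation factor gene Tufm stood at -0.20 ± 0.09 and the mRNA-binding Lrpprc at 0.26 ± 0.09 in DC. For RC against DC the elongation factor gene Gfm1 stood at 0.27 ± 0.10 and Oxa1l, whose product inserts proteins into the inner membrane, at 0.08 ± 0.07. The initiation factor gene Mtif3 stood at -0.15 ± 0.06 for RC against CC.

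Among 23 genes of mitochondrial transcription and RNA processing 1 fell in DC, Elac2, which cuts the ends of tRNAs (-0.34 ± 0.08; limma adjusted p = 0.0248). It did not pass without CC 1, CC 2, CC 3, DC 2, DC 3 or DC 4 (adjusted p up to 0.0896). In this list 91.3% of the differences between DC and CC were below 0 (median -0.14), against 39.7% of all probe sets. In the 2 highest level classes that share was 55.4% and 61.7%. For RC against CC 73.9% of the list were below 0 (all probe sets: 38.4%), and for RC against DC 30.4% (54.8%). The shares in those 2 level classes were 55.6% and 57.2% for RC against CC, and 50% and 41.9% for RC against DC. The polymerase gene Polrmt stood at -0.19 ± 0.05 for RC against CC (limma adjusted p = 0.165). Fastkd1 and Tbrg4, both of the FASTK family of RNA-binding proteins, stood at 0.27 ± 0.08 and 0.14 ± 0.05 for RC against DC. Of 16 mitochondrial aminoacyl-tRNA synthetase genes 1 rose and 1 fell in DC. Wars2 for tryptophan rose by 0.37 ± 0.07 (1.29-fold; limma adjusted p = 0.00429), from 8.63, 8.59, 8.66 and 8.53 in CC to 9.14, 8.96, 8.93 and 8.87 in DC, and kept its call with each single array left out. Yars2 for tyrosine fell by 0.45 ± 0.12 (adjusted p = 0.0383) and passed only without DC 1 or RC 3 among those fits (up to 0.13). Vars2 for valine stood at -0.14 ± 0.05 for RC against DC and Hars2 for histidine at -0.23 ± 0.09 for RC against CC.

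Among 14 regulators of nuclear genes for mitochondria, the factors whose motifs recur in the members' windows had no call. In CC, DC and RC Nrf1 averaged 8.86, 8.85 and 8.79, Gabpa 8.57, 8.45 and 8.51, and Yy1 10.02, 10.04 and 10.02. The lowest p-values for DC against CC were those of the coactivator gene Pprc1 (-0.34 ± 0.12) and of Gabpb1, the partner of Gabpa (-0.34 ± 0.12), with limma adjusted p = 0.124 and 0.151. The coactivator Ppargc1a rose in RC, by 0.68 ± 0.08 against DC and 0.59 ± 0.08 against CC (1.60-fold and 1.51-fold; limma adjusted p = 0.000764 and 0.00836). Its RC arrays read 8.64, 8.45, 8.43 and 8.63, all above the 8 others, which lay between 7.74 and 8.07. The calls held with each single array left out.

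Beside the genes of this ribosome, 57 cytosolic ribosomal protein genes had no call in any comparison, with median differences of 0.05 (DC minus CC), -0.01 (RC minus DC) and 0.02 (RC minus CC). Of 81 nuclear respiratory chain genes 1 was higher in DC than in CC and 1 higher in RC than in DC, with medians of -0.06, 0.13 and 0.09 in the same order. The differences between these sets and the mitochondrial ribosomal protein genes were not tested.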

How the data were processed

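Total RNA from flask cultures had been turned into biotinylated cDNA and measured on GeneChip whole-transcript arrays, per the labels. The authors' deposited table holds log2 values, a scale read from their range (3.69 to 14.47), for 35556 probe sets on 12 arrays. The sources used here do not give how probes were summarised and normalized. Detection calls were not used. Titles gave each array its group and number. Gene symbols came from the array's annotation table (probe sets: 21789 with 1 symbol, 1621 with several, 12146 with none), and all 77 members matched a RefSeq gene by identifier. A linear model of the 3 conditions was fitted over all probe sets and 12 arrays with limma 3.58.1 in R 4.3.3 (9 residual degrees of freedom), with 2-sided tests and Benjamini-Hochberg adjustment at 0.05. Errors of differences are moderated standard errors and the number of arrays limits precision. The code was tested on simulated data.

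Members and lists were chosen with earlier results of these data known. Described by rule were, per comparison, up to 12 called members and the smallest p-values up to 6, the 3 highest and 3 lowest means, the Mrps18 paralogues and Mrps30, and of each list up to 3 called genes or the 2 with the smallest p; others were chosen after their values were seen. Alternatives were median centring, quantile normalization, the interquartile range as covariate, array weights, only 2 groups, a replicate block, a variance trend, 2 filters on probe sets, all probe sets of a gene, and each array left out. Same-numbered arrays deviated together with correlations from -0.36 to 0.47, over 0.1 in 5 of 12 pairs, so the numbers were not taken to pair samples.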

Additional observations from a re-analysis of the deposited data

Results flagged for a closer look

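In 4 of 66 groups of 4 arrays, 1 array stood apart from the rest by Dixon's 95% limit, where chance flags about 1 in 20. Mrpl37 read 10.04 on CC 4 and 10.11 to 10.12 on the other CC arrays. Mrps17 read 8.19 on RC 1 and 8.004 to 8.03 on the other RC arrays. Mrpl24 read 9.21 on RC 3 and 9.54 to 9.59 on the others, and Mrps18b read 10.74 on CC 1 and 10.58 to 10.60 on the others.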

How the results depend on the processing

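The median differences moved by less than the SD of the array medians within groups (0.12) in all alternatives, but their sign turned in some: the lowest and highest were -0.17 and 0.02 (DC minus CC), -0.00 and 0.13 (RC minus DC), and -0.09 and 0.10 (RC minus CC). Counts of members called moved more, from a base of 2, 1 and 0 for DC against CC, RC against DC and RC against CC. For DC against CC the count was 0 with only the 2 groups in the fit, 0 with the replicate block, 1 with a variance trend, 1 with the interquartile range as covariate (Mrpl54, higher), and, in alternatives chosen after seeing the data, 0 without DC 2, DC 4 and RC 3, 0 with only CC 1 and CC 2 and 0 with only CC 3 and CC 4 as CC. For RC against DC it was 0 with median centring, 0 with only the 2 groups, 0 with the replicate block, 12 with array weights and 0 without DC 2, DC 4 and RC 3. For RC against CC it was 1 with the covariate, 2 with array weights and 0 with the replicate block. With single arrays left out the counts ranged from 0 to 3, from 0 to 3 and stayed at 0. The cause was not tested. The shares of all probe sets that passed in these alternatives are not given here. The counts are therefore not read as a result about the members. For the 3 differences called among the 20 described members, 40 of 70 alternatives lost the call and none changed its sign. The 57 differences without a call gained one in 10 of 1318 alternatives, which shows no stability. Which samples the replicate numbers pair is not known, so a call lost under the block is not a weaker effect. For the gene of widest spread, Mrpl42, the 4 arrays per group cannot exclude a 2-fold decrease, and no signal could be set against its background.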
